A study of Oryctolagus cuniculus with 35 samples.

Results

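Ceftaroline given together with mesenchymal stromal cells (MSC) was compared with saline (NaCl) in the lungs of rabbits that had pneumococcal pneumonia and adverse, that is injurious, mechanical ventilation. The comparison used 14 of the 35 lung RNA libraries of the study, 7 from combined treatment and 7 from NaCl, chosen by their group labels. It is not among the 4 comparisons named in the study's design text, so the reads of both groups were taken from separate deposited tables, joined by gene identifier and scaled together. All rabbits were of the New Zealand strain, and the 4 pneumonia groups shared the infection and the ventilation. The combined group received ceftaroline-fosamil at 20 mg/kg into the muscle and MSC from human umbilical cord at 3000000 cells per kg into the vein. The MSC group received these cells alone, the ceftaroline group the antibiotic alone at the same dose, and the NaCl group saline. Treatment began 4 h after inoculation, and lungs were sampled at 24 h or at an earlier death. The labels do not say which animals died early, so the part that sampling time played in any difference was not tested. The group labelled healthy and given NaCl serves here only to show where levels lie without disease. The infused MSC were human cells in rabbit hosts, and the labels give no age, sex or litter.

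In pneumococcal pneumonia, bacterial products engage sensors on macrophages and epithelium, which switch on cytokines, chemokines and prostaglandin synthesis. Neutrophils then leave the blood through endothelium that displays P-selectin, and they carry granules filled with antimicrobial proteins. The same signals induce their own inhibitors, and overstretched tissue adds oxidative and growth-arrest responses. Ceftaroline is a cephalosporin that blocks bacterial cell wall synthesis. MSC are infused connective tissue cells studied for the factors and organelles they pass to leukocytes and epithelium.

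The 7 combined-treatment libraries held 11137017 to 18271138 recovered reads (median 12927861) and the 7 NaCl libraries 7611988 to 14948358 (median 9527492). The 10 most abundant genes took 6.93 to 16.2% of reads in combined-treatment libraries and 8.8 to 24.5% in NaCl libraries. Of the defining lung markers, surfactant protein B (SFTPB) stood at 11120 normalized reads or more and AGER, an alveolar type I gene, at 8735 or more in each of the 14 libraries, whereas SFTPC, SFTPD and ABCA3 were listed at 0 throughout. Normalized reads are reads per library after scaling to a common effective size, are not corrected for gene length, and therefore serve to compare libraries rather than genes. In principal components, combined-treatment replicates 3, 5 and 6 stood apart from the other 11 libraries on the first component, which held 38.5% of the variance. NaCl replicates 5, 6 and 7 stood apart on the second, with 22.4%. The sample titles of these 3 NaCl libraries carry the ending PG and begin with I or L, and the labels explain neither. The other 4 NaCl libraries and all 7 combined-treatment libraries have no ending, and their titles begin with B and E. Against the 3 NaCl libraries with the ending, what these titles stand for and the treatment cannot be told apart. The count of called genes in each gene list is therefore also given against the 4 NaCl libraries without the ending, against the 3 with it, and without combined-treatment replicates 3, 5 and 6.

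**Figure D1:**
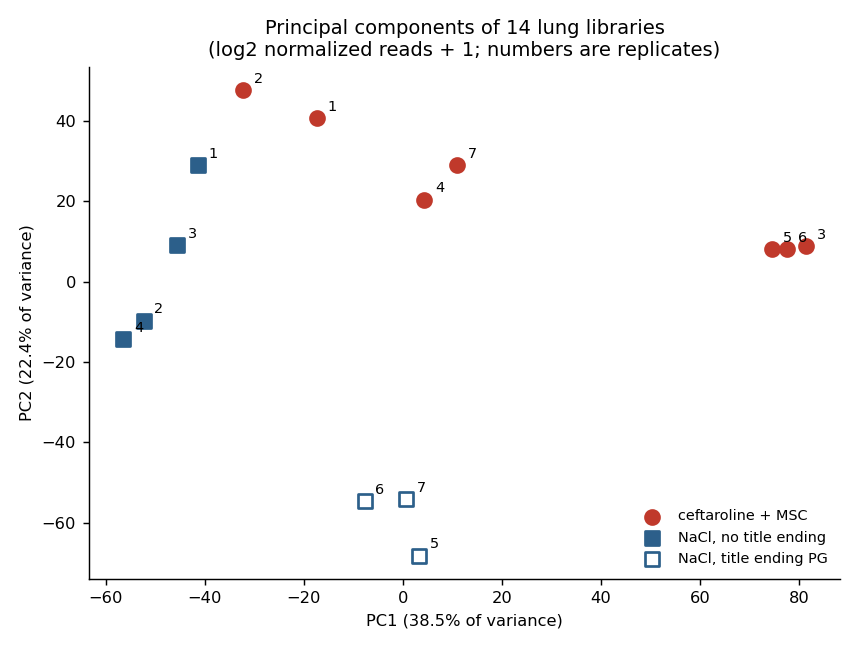
First and second principal components of log2(normalized reads + 1) in the 14 lung libraries, with circles for combined treatment, filled squares for NaCl without a title ending and open squares for NaCl with the ending PG. Combined-treatment replicates 3, 5 and 6 lie at 74.5 to 81.5 on the first component, and the 3 open squares lie below the other 11 libraries on the second.

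Lungs of the combined treatment differed from NaCl lungs in a broad set of genes. Of 9635 genes tested, 1523 were higher and 1130 lower, 2653 or 27.5% in all (limma on log2(normalized reads + 1), Benjamini-Hochberg adjusted p under 0.05). The share called higher was 15.8% and the share called lower 11.7%. The median log2 fold change of all genes, combined treatment over NaCl, was 0.05. In 549 genes or 5.7% the 7 libraries of each group did not overlap at all, with 334 genes (3.47%) higher and 215 (2.23%) lower under combined treatment. With scaling to library totals instead, 89.4% of called genes were higher against 57.4% here, and the median of all genes was 0.415, so small changes are relative to this scaling. Against the 4 NaCl libraries without the title ending 2318 of the 9635 genes were called, of which 1615 were among the 2653. Against the 3 with it 3081 were called, of which 1773 were among the 2653. Leaving out combined-treatment replicates 3, 5 and 6 reduced the calls to 544 of 9635. Counts of called list members in these 3 sets are to be read beside these totals, and those in all 14 libraries beside the 27.5%. Of the 103 called genes that are named here, 78 were also called against the NaCl libraries without the ending, 78 against those with it and 36 without the 3 combined-treatment libraries. In these 3 sets none of the 103 changed sign, and 30 were called in all of them. A rise or fall given below holds for the 14 libraries together.

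Among the 12 largest falls were the inflammatory mediators IL6, CXCL8 and IL23A. IL6, the fever and acute-phase cytokine, had 6.25, 705 and 4689 normalized reads as the lowest, median and highest values of combined-treatment lungs, against 1693, 16306 and 41394 in NaCl lungs. Combined-treatment replicates 3, 5 and 6 held 6.25 to 25.9 and the other 4 held 705 to 4689, of which 2 lay below every NaCl lung. The log2 fold change was -5.85 (SE 1.41, adjusted p = 0.00872), and without those 3 libraries it was -2.94 with adjusted p = 0.0582. CXCL8, the main chemokine for neutrophils, had 433, 3963 and 7925 normalized reads in combined-treatment lungs, against 20789, 25722 and 243120 in NaCl lungs, with no overlap. Its log2 fold change was -4.45 (SE 0.81, adjusted p = 0.00261) and it was also called without the 3 libraries, at -3.09. IL23A, a subunit of interleukin 23, had 19.9, 159.7 and 865 normalized reads under combined treatment and 714, 1176 and 5561 under NaCl. The 2 highest combined-treatment lungs reached into the NaCl range.

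Of 18 tested inflammatory cytokines and chemokines, 5 fell and 0 rose, a share of 27.8% called that is close to the 27.5% of all genes. Their median log2 fold change was -1.09, against 0.05 over all genes tested. IL1B had a log2 fold change of -2.67 (adjusted p = 0.0439), with 184, 2779 and 5792 normalized reads under combined treatment and 2092, 5431 and 37402 under NaCl, so that the ranges overlapped widely. CCL4, which draws monocytes and was chosen after its values were seen, fell by 3.45 (adjusted p = 0.0443). The calls of IL1B and CCL4 were each lost when any of combined-treatment replicates 3, 5 and 6 or NaCl replicates 2, 3 and 4 was left out, that of IL1B also without NaCl replicate 7 and that of CCL4 also without combined-treatment replicate 7, at adjusted p up to 0.0908. CSF3, the granulocyte growth factor, did not pass at -4.21 (adjusted p = 0.0602). TNF did not pass either, at -0.98 (adjusted p = 0.544), with 18.0, 415 and 1278 normalized reads in combined-treatment lungs and 42.1, 263 and 2503 in NaCl lungs. Among the 12 largest falls outside that list were IL36A, an epithelial member of the interleukin 1 family, at -3.59, PROK2, a secreted signal for myeloid cells, at -3.61, and FGF23, a hormone of phosphate balance, at -3.68. FGF23 lost its call without combined-treatment replicate 5 (adjusted p = 0.0504), and IL36A lost it in 8 of 14 such fits, at adjusted p up to 0.0834. The cytokine list depended on which NaCl libraries were used: 9 fell and 0 rose against the 4 without the title ending (median -2.49), while 2 fell and 4 rose against the 3 with it (median 0.47). Without combined-treatment replicates 3, 5 and 6, 1 fell and 1 rose.

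Most of the tested inhibitors that inflammatory signalling induces against itself fell. Of 14 tested feedback inhibitors, 10 fell and 0 rose, or 71.4%, with a median log2 fold change of -1.60. DUSP1, a phosphatase that switches off stress kinases, had 1011, 2732 and 4171 normalized reads in combined-treatment lungs, against 6664, 9114 and 15158 in NaCl lungs. The groups did not overlap, and the log2 fold change was -1.89 (SE 0.31, adjusted p = 0.00175). NFKBIZ, an atypical inhibitor of the NF-kB family, also did not overlap, with 434, 1480 and 2134 normalized reads under combined treatment and 2179, 5230 and 7541 under NaCl. TNFAIP3, the ubiquitin-editing enzyme A20, fell by 2.67 and DUSP2, another stress-kinase phosphatase, by 1.81 on the log2 scale. IL10, the main anti-inflammatory cytokine, had 4.3, 17.7 and 53.1 normalized reads in combined-treatment lungs, against 13.3, 71.3 and 323 in NaCl lungs, and fell by 2.15 (adjusted p = 0.034). That call was lost when any of combined-treatment replicates 3, 5 and 6 or NaCl replicates 1, 2, 4 and 6 was left out, at adjusted p up to 0.0712. Within the title endings the counts were 10 lower against the 4 NaCl libraries without it and 5 lower against the 3 with it, with 0 higher in both. Leaving out combined-treatment replicates 3, 5 and 6 left 1 of the 14 called, in a set where 544 of all 9635 genes were called. Of 13 tested innate sensing and NF-kB genes, NFKB1, a subunit of NF-kB, fell by 1.29 and TLR3, a sensor of double-stranded RNA, rose by 1.18, and the other 11 were not called. NFKB1 lost its call without combined-treatment replicate 6 (adjusted p = 0.0502), and TLR3 in 7 of 14 such fits. In this list 3 fell and 0 rose against NaCl without the ending, 1 fell and 1 rose against NaCl with it, and 0 fell and 1 rose without combined-treatment replicates 3, 5 and 6.

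Neutrophil genes were the list with the lowest median, -2.79. Of 6 tested neutrophil markers 5 fell and 0 rose. CAMP, the cathelicidin of neutrophil granules, had 54.2, 239 and 2733 normalized reads in combined-treatment lungs, against 6480, 14577 and 38333 in NaCl lungs. No combined-treatment lung reached the lowest NaCl lung, and the log2 fold change was -5.57 (SE 0.86, adjusted p = 0.00143), and it was -3.89 without combined-treatment replicates 3, 5 and 6 (adjusted p = 0.0129). LTF, the iron-binding lactoferrin, had 37.5, 101 and 2724 normalized reads under combined treatment and 1528, 5170 and 13923 under NaCl, a log2 fold change of -4.41 (adjusted p = 0.00599). S100A8 and S100A9, which form the calcium-binding protein calprotectin, fell, with log2 fold changes of -2.79 and -2.80. S100A8 had 5191, 47739 and 207580 normalized reads in combined-treatment lungs, against 62022, 300830 and 460820 in NaCl lungs, and in edgeR's quasi-likelihood test its adjusted p was 0.0732. CXCR1, a receptor for CXCL8, fell by 2.50. CSTA, a cysteine protease inhibitor among the 12 largest falls, had 13.3, 37.3 and 127 normalized reads under combined treatment and 112, 913 and 2621 under NaCl. The neutrophil count was 5 lower against the 4 NaCl libraries without the title ending and 2 lower against the 3 with it, and without combined-treatment replicates 3, 5 and 6 it was 1, CAMP. Fewer neutrophils in the sampled piece and less of these messengers per neutrophil cannot be told apart in whole lung. Of 20 neutrophil genes listed, CSF3R, FPR1, FPR2, LCN2, MMP9 and PADI4 were listed at 0 in all 35 libraries.

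**Figure D2:**
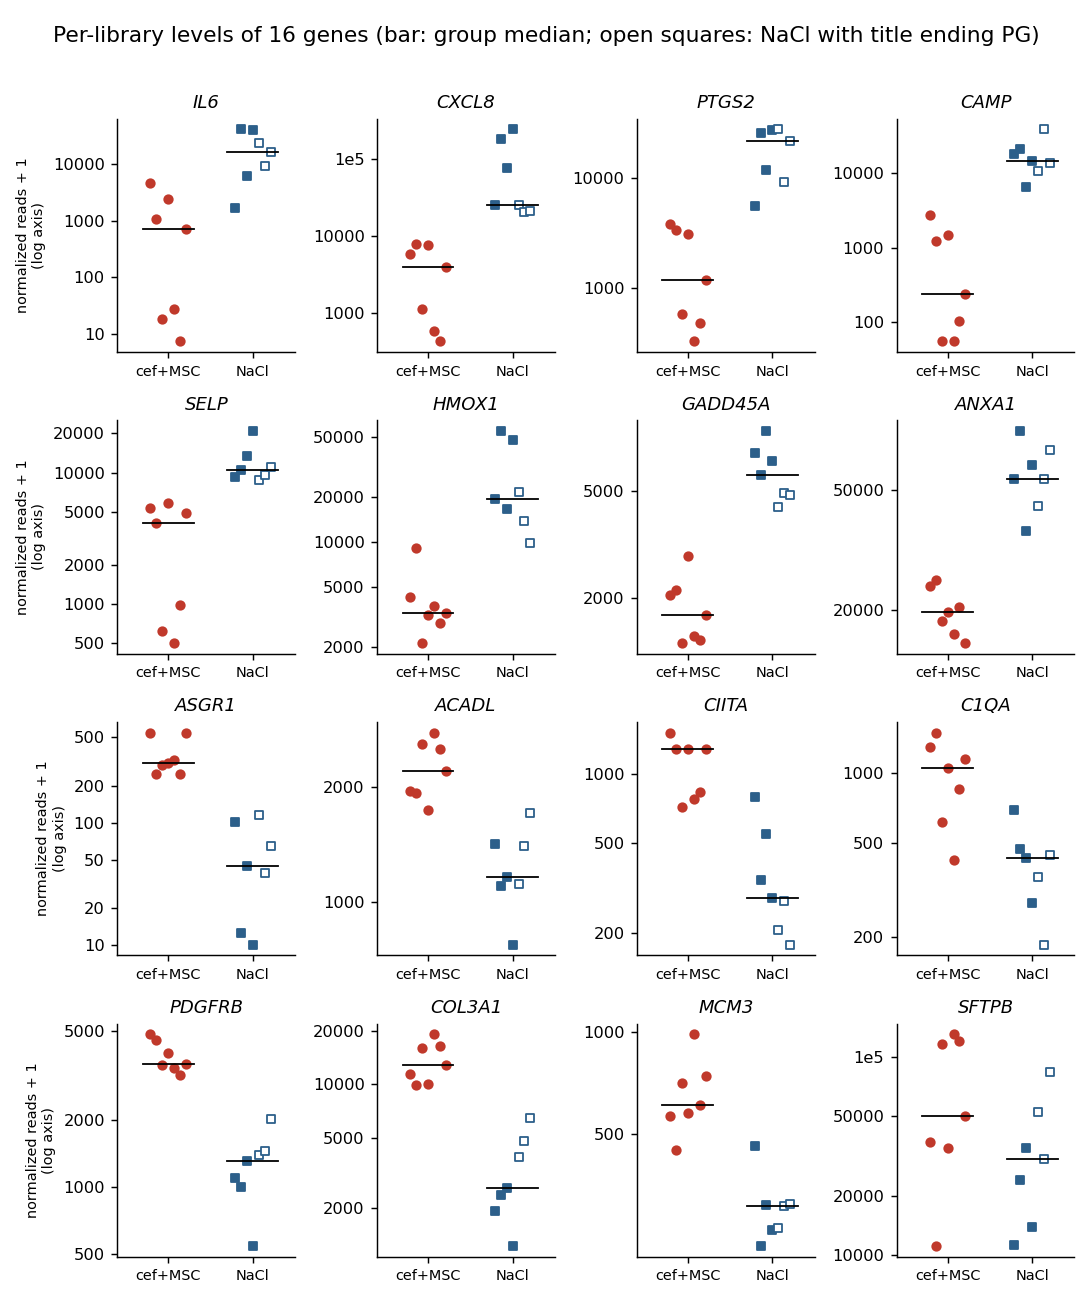
Normalized reads + 1 on log axes in each lung for 16 genes, with combined treatment in circles on the left, NaCl in squares on the right, open squares for NaCl with the title ending PG and a bar at each group's median. CXCL8, PTGS2, CAMP, SELP, HMOX1, GADD45A and ANXA1 lie lower, and ASGR1, ACADL, PDGFRB and COL3A1 higher, in every combined-treatment lung than in any NaCl lung, whereas SFTPB overlaps widely.

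PTGS2, the inducible cyclooxygenase that makes prostaglandins, had 323, 1177 and 3803 normalized reads in combined-treatment lungs, against 5543, 21900 and 27998 in NaCl lungs, and the groups did not overlap. Its log2 fold change was -3.71 (SE 0.60, adjusted p = 0.00175). SELP, the P-selectin on which leukocytes roll, had 503, 4138 and 5909 normalized reads under combined treatment and 8855, 10595 and 20902 under NaCl, again without overlap, and fell by 2.43. ADAMTS4, a protease of proteoglycans, had 58.0, 1404 and 11291 normalized reads in combined-treatment lungs, against 6460, 25717 and 52555 in NaCl lungs. It fell by 4.63 (SE 1.13, adjusted p = 0.00932), with 2 combined-treatment lungs inside the NaCl range. Of 9 tested genes of endothelial activation 5 fell and 0 rose, with a median of -2.09. Besides PTGS2, SELP and ADAMTS4 these were F3, tissue factor, which starts coagulation, at -2.16, and EDN1, the vasoconstrictor endothelin 1, at -2.09. EDN1 was named after its values were seen. The log2 fold change of F3 was -1.12 against the 4 NaCl libraries without the title ending and -3.59 against the 3 with it. Of 14 endothelial identity genes 4 fell and 1 rose, 35.7% called against 27.5% of all genes. Their median was -0.06, with 7 log2 fold changes above 0 and 7 below. PECAM1, a junction protein of endothelium and platelets, had 2488, 2724 and 4185 normalized reads under combined treatment and 4435, 6812 and 9699 under NaCl, with no overlap. S1PR1, a lipid receptor that tightens endothelium, fell by 1.33 and the junction cadherin CDH5 by 0.82, while the receptor TIE1 rose by 0.84. The activation list had 4 lower against NaCl without the ending and 5 lower against NaCl with it, and the identity list 3 lower and 1 higher and 5 lower and 2 higher in the same order. Without combined-treatment replicates 3, 5 and 6, 2 of the 9 activation genes and 1 of the 14 identity genes were called, all lower.

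Of 10 complement and coagulation genes 2 rose and 2 fell, 40% called against 27.5% of all genes. C1S and C1R, the proteases that start the classical complement pathway, rose by 1.14 and 1.30, and besides F3 the plasminogen activator PLAU fell by 0.98. C1R lost its call without combined-treatment replicates 1 or 7 or NaCl replicates 2 or 6, and PLAU in 7 of 14 such fits. Against NaCl without the ending F3 was the 1 gene of the list called, and against NaCl with it 3 rose and 2 fell. Without combined-treatment replicates 3, 5 and 6, 4 rose and 0 fell, so that neither F3 nor PLAU was called there. ANXA1, an inhibitor of phospholipase and an early resolution signal, had 15549, 19732 and 25255 normalized reads in combined-treatment lungs, against 36763, 54697 and 78815 in NaCl lungs. The groups did not overlap (log2 fold change -1.49, SE 0.20, adjusted p = 0.000919). Of the 18 resolution and repair genes tested, 4 fell and 2 rose, with a median of -0.71. The share called was 33.3%, near the 27.5% of all genes. TNFAIP6, which crosslinks hyaluronan and is itself induced by TNF, fell by 2.87, and the epidermal growth factor relative AREG fell by 2.83. FGF10, a mesenchymal growth signal for alveolar epithelium, rose by 1.70, with 137, 293 and 564 normalized reads in combined-treatment lungs, against 41.1, 80.0 and 172 in NaCl lungs. The list had 6 lower and 3 higher against NaCl without the ending, 4 lower and 1 higher against NaCl with it, and 1 lower and 0 higher (median -0.26) without combined-treatment replicates 3, 5 and 6. TNFAIP6 was not called against NaCl without the ending (-2.37, adjusted p = 0.103). Without the 3 combined-treatment libraries TNFAIP6, AREG and FGF10 all lost their calls, at adjusted p of 0.188, 0.0578 and 0.0661. AREG was at -1.95 against NaCl without the ending and -4.05 against NaCl with it.

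Several antioxidant and growth-arrest genes fell. HMOX1, haem oxygenase 1, had 2133, 3378 and 9167 normalized reads in combined-treatment lungs, against 9858, 19359 and 55043 in NaCl lungs, without overlap. Its log2 fold change was -2.55 (SE 0.39, adjusted p = 0.00143) and -2.28 without combined-treatment replicates 3, 5 and 6. GCLC, the rate-limiting enzyme of glutathione synthesis, had 67.1, 92.4 and 132 normalized reads under combined treatment and 184, 309 and 696 under NaCl, also without overlap. Of 16 antioxidant genes 5 fell and 2 rose (median -0.35), 43.75% called against 27.5% of all genes. TXNRD1, thioredoxin reductase, fell by 0.99, and glutathione synthetase GSS rose by 0.90. GADD45A, a growth-arrest gene of the p53 response, had 1354, 1715 and 2846 normalized reads in combined-treatment lungs, against 4344, 5725 and 8336 in NaCl lungs. Its groups did not overlap, and its log2 fold change was -1.70 (SE 0.19, adjusted p = 0.000866). Of 12 p53 and growth-arrest genes 7 fell and 2 rose, 75% called, with a median of -1.03. The kinase PLK3 fell by 2.29 without overlap, the antiproliferative BTG1 by 0.96 and the cell-cycle inhibitor SFN, stratifin, by 1.86. FOSL1, a stress-induced subunit of the AP-1 factor, had 10.8, 35.1 and 142 normalized reads under combined treatment and 266, 659 and 1176 under NaCl, with no overlap and a log2 fold change of -3.64. The growth-arrest counts were 6 lower and 2 higher against the 4 NaCl libraries without the title ending and 6 lower and 0 higher against the 3 with it. They were 2 lower and 0 higher without combined-treatment replicates 3, 5 and 6, where 3 antioxidant genes were called, all lower. The antioxidant counts were 6 lower and 1 higher against NaCl without the ending and 3 lower and 3 higher against NaCl with it.

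Of 9 heat shock and chaperone genes 4 fell and 0 rose, with a median of -1.08. These were BAG3 at -1.48 and HSPA2 at -1.27, both chaperone-system genes, CHORDC1, an HSP90 partner, at -1.08, and the small heat shock protein CRYAB at -1.45. BAG3 had 1193, 1661 and 2141 normalized reads in combined-treatment lungs, against 1404, 4823 and 10115 in NaCl lungs, where only NaCl replicate 1 lay inside the combined-treatment range. CRYAB lost its call without combined-treatment replicates 4 or 7 or NaCl replicates 2 or 4. The chaperone count was 4 lower against either NaCl subset and 1 lower without combined-treatment replicates 3, 5 and 6. Of 12 genes of the integrated and endoplasmic reticulum stress responses, the chaperone cofactor DNAJB9 was the 1 gene called by limma, at -1.09, while edgeR called 3, all lower. Of this list 4 were lower against NaCl without the ending, 2 against NaCl with it and 1 without combined-treatment replicates 3, 5 and 6. Of 11 cell death genes 2 fell, the caspase-8 regulator CFLAR at -0.92 and the survival gene BCL2 at -0.83, and the BCL2 call was lost in 9 of 14 fits that left out 1 library. The cell death counts were 1 lower against NaCl without the ending, 2 lower and 1 higher against NaCl with it, and 0 lower and 1 higher without combined-treatment replicates 3, 5 and 6. Of 19 proteasome subunits PSMD12 fell by 0.39 and the other 18 were not called. With scaling to library totals PSMD12 was at -0.023. Against NaCl with the ending 2 subunits were higher and 1 lower, and 0 were called in the other 2 sets. None of 11 cytosolic ribosomal protein genes was called by limma or edgeR, with 2 at an unadjusted p under 0.05. Against the 4 NaCl libraries without the title ending 5 ribosomal genes were lower, against the 3 with it 3 were higher, and without combined-treatment replicates 3, 5 and 6 the count was 0.

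Among genes of low oxygen and glucose use, few passed. Of 15 hypoxia-response genes, NDRG1, a growth-arrest gene induced by low oxygen, fell by 1.25 and HIF1A, the oxygen-regulated factor itself, by 1.14. The HIF1A call was lost when any of combined-treatment replicates 3, 5 and 6 or NaCl replicates 4, 5 and 6 was left out (adjusted p up to 0.0697). The hypoxia counts were 5 lower against NaCl without the ending, 1 lower and 1 higher against NaCl with it, and 0 without combined-treatment replicates 3, 5 and 6. Of 12 glycolysis genes 2 fell and 0 rose, 16.67% called against 27.5% of all genes, with a median of -0.80. SLC2A1, the glucose carrier GLUT1, had 199, 286 and 636 normalized reads in combined-treatment lungs, against 361, 951 and 1858 in NaCl lungs, and fell by 1.46. The hexokinase HK1 fell by 0.82, a call lost without combined-treatment replicate 6 or without NaCl replicate 4, at adjusted p up to 0.0526. The glycolysis list was 9 lower against the 4 NaCl libraries without the title ending (median -1.46), and 0 of 12 were called against the 3 with it (median 0.01) or without combined-treatment replicates 3, 5 and 6 (median -0.34).

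Genes of fatty acid use were among those that rose. ACSM3, an enzyme that activates medium-chain fatty acids, was 1 of the 12 largest rises, at 3.28. It had 11.0, 114 and 225 normalized reads under combined treatment and 3.04, 6.66 and 15.9 under NaCl. Its 7 combined-treatment libraries were by themselves enough to pass the filter of 10 normalized reads in 7 libraries. Of 10 tested genes of fatty acid oxidation 7 rose and 0 fell, with a median of 0.78. ACADL, the long-chain acyl-CoA dehydrogenase, had 1744, 2201 and 2786 normalized reads in combined-treatment lungs, against 771, 1163 and 1710 in NaCl lungs, without overlap (log2 fold change 0.88, SE 0.17, adjusted p = 0.0031). CPT2, which completes fatty acid entry into mitochondria, rose by 0.90, with 319, 431 and 591 normalized reads under combined treatment and 156, 229 and 366 under NaCl. ECHS1, an enoyl-CoA hydratase, rose by 0.80 and the acylcarnitine carrier SLC25A20 by 0.76. The count was 5 higher against either NaCl subset, and 0 of 10 were called without combined-treatment replicates 3, 5 and 6.

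Nuclear genes of the respiratory chain moved by smaller amounts. Of 18 tested 7 rose and 1 fell, with a median log2 fold change of 0.34. NDUFB3, a subunit of complex I, had 1139, 1398 and 1562 normalized reads in combined-treatment lungs, against 656, 817 and 1037 in NaCl lungs, with no overlap, and rose by 0.74 (SE 0.12, adjusted p = 0.00165). The complex I subunits NDUFB6, NDUFB5 and NDUFV2 rose by 0.63, 0.46 and 0.43. Of 11 citric acid cycle genes 3 rose, a share of 27.3% called that is near the 27.5% of all genes, with a median of 0.02. These were SUCLG2 and SUCLG1, subunits of succinyl-CoA ligase, by 0.56 and 0.45, both without overlap, and DLAT, of the pyruvate dehydrogenase complex, by 0.68. The counts were 3 higher against NaCl without the ending, 3 higher and 1 lower against NaCl with it, and 1 higher without combined-treatment replicates 3, 5 and 6. Of 17 mitochondrial quality control and biogenesis genes 3 fell and 0 rose, 17.65% called against 27.5% of all genes. TWNK, the helicase of mitochondrial DNA, fell by 0.80, NRF1, a nuclear factor for respiratory genes, by 0.63 without overlap, and PPRC1, a coactivator of the same genes, by 0.82, a call lost in 8 of 14 fits that left out 1 library. This list had 2 lower and 1 higher against NaCl without the ending, 4 lower and 3 higher against NaCl with it, and 0 called without combined-treatment replicates 3, 5 and 6. PINK1, which flags failing mitochondria for disposal, had 1942, 2381 and 5252 normalized reads in combined-treatment lungs, against 1044, 1730 and 3092 in NaCl lungs, and did not pass (log2 fold change 0.65, adjusted p = 0.124). The respiratory counts were 5 higher and 1 lower against the 4 NaCl libraries without the title ending, 13 higher and 1 lower against the 3 with it, and 2 higher without combined-treatment replicates 3, 5 and 6.

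**Figure D3:**
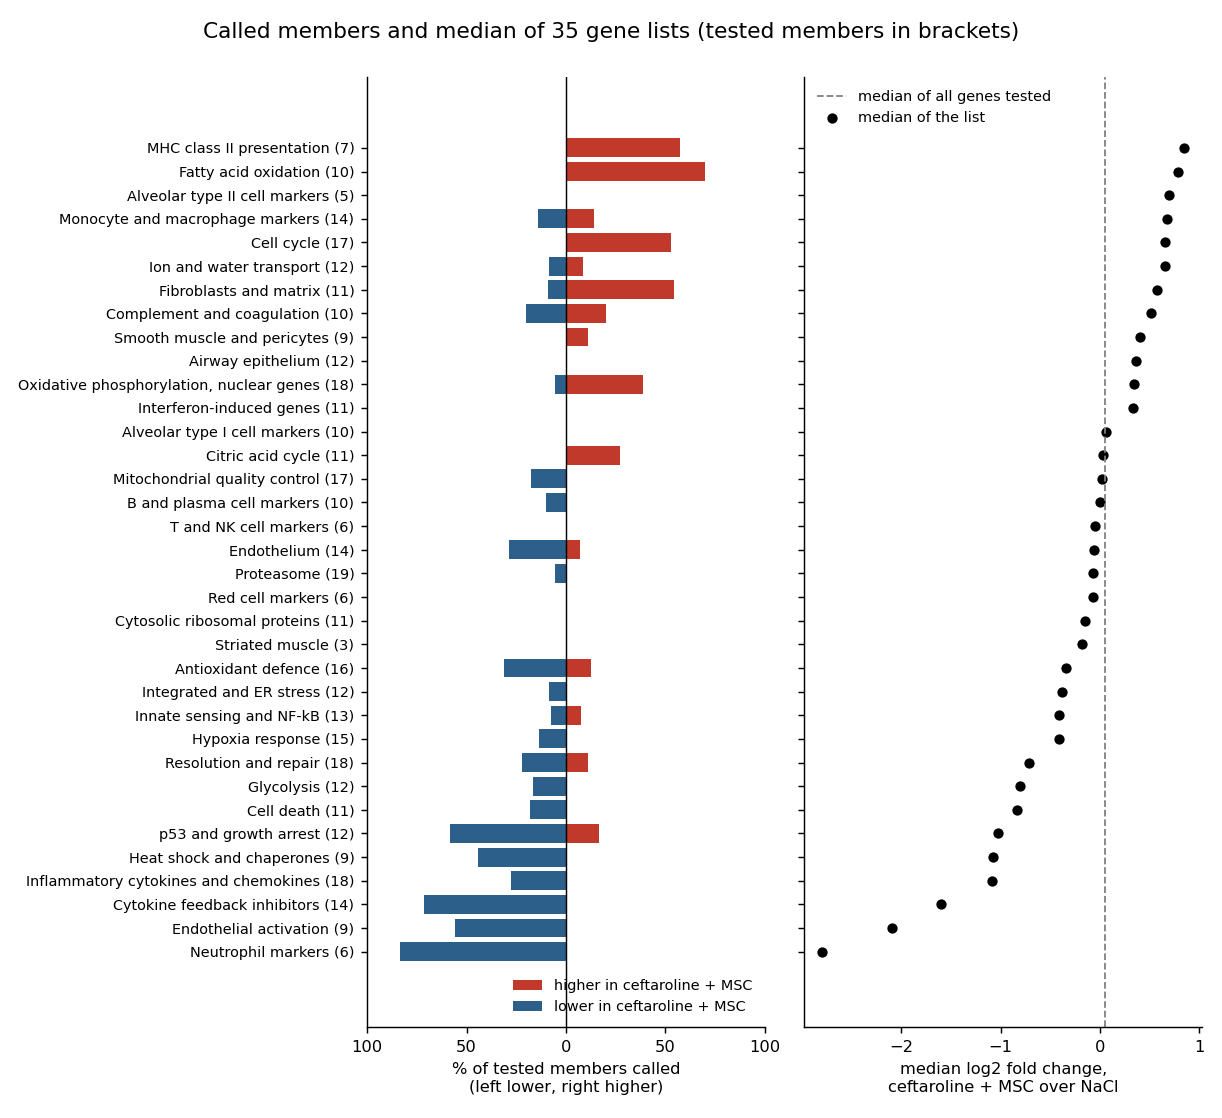
Share of tested members called in each of 35 gene lists (left, lower members to the left of 0 and higher members to the right) and the list's median log2 fold change, combined treatment over NaCl (right), with a dashed line at the median of all genes tested, 0.05. Neutrophil markers lie at -2.79 at the bottom, and MHC class II presentation at 0.85 and fatty acid oxidation at 0.78 lie at the top.

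Of 7 tested genes of MHC class II presentation, by which antigen is shown to CD4 T cells, 4 rose and 0 fell, with a median of 0.85. CIITA, the master regulator of the class II genes, had 717, 1286 and 1522 normalized reads in combined-treatment lungs, against 177, 283 and 791 in NaCl lungs, with 1 NaCl lung inside the combined-treatment range. Its log2 fold change was 1.69 (SE 0.31, adjusted p = 0.00266). HLA-DMA and RLA-DMB, whose products load peptides onto class II molecules, rose by 1.60 and 1.58, and RFX5, a factor that binds class II promoters, by 0.85. HLA-DMA had 2356, 2888 and 4635 normalized reads under combined treatment and 602, 895 and 3152 under NaCl. The other 3 genes were not called, among them CD74, named after its values were seen, at 0.16 (adjusted p = 0.706 in limma). All 7 log2 fold changes were above 0. Summed over the 7 genes, combined-treatment lungs held 55680 to 108800 (median 68000) normalized reads and NaCl lungs 28510 to 93260 (median 63990). Of 18 listed symbols, 8 were in the deposited tables. This list also had 4 members called higher without combined-treatment replicates 3, 5 and 6, and 3 and 7 members called higher against the NaCl libraries without and with the title ending.

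Of 14 monocyte and macrophage markers 2 rose and 2 fell, with a median of 0.67, and the 28.6% called is close to the 27.5% of all genes. Against NaCl without the ending 1 rose and 1 fell, whereas 4 rose and 0 fell both against NaCl with it and without combined-treatment replicates 3, 5 and 6. C1QA, a chain of complement C1q made by tissue macrophages, had 425, 1044 and 1480 normalized reads in combined-treatment lungs, against 185, 433 and 690.1 in NaCl lungs, and rose by 1.25 (SE 0.31, adjusted p = 0.00969). SIGLEC1, a sialic acid receptor of macrophages, rose by 1.62 in limma, and its adjusted p was 0.203 in edgeR. CD14, the co-receptor for bacterial products, fell by 1.27, and FABP4, a lipid-binding protein, by 1.23. The calls of SIGLEC1, CD14 and FABP4 were lost in 10, 8 and 5 of the 14 fits that left out 1 library, in each case when NaCl replicates 2 or 4 were left out. Summed over the 14 markers, combined-treatment lungs held 12720 to 43660 (median 26180) normalized reads and NaCl lungs 12850 to 71520 (median 27830).

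None of 6 T and NK cell markers passed in limma, with 1 at an unadjusted p under 0.05. Of 10 B and plasma cell markers BLK, a B cell kinase, fell by 0.39, a call lost in 7 of 14 such fits. With scaling to library totals BLK was at -0.023. Of the T and NK cell markers 0 were called against NaCl without the ending, 1 was lower against NaCl with it, and 1 was higher without combined-treatment replicates 3, 5 and 6. The B and plasma cell counts in these sets were 1 lower, 1 lower and 1 higher, and 0. TBX21, a T cell factor with the lowest p of its list, did not pass (log2 fold change 1.20, adjusted p = 0.0748; 0.0306 in edgeR). None of 11 interferon-induced genes was called by limma or edgeR or had an unadjusted p under 0.05, and their median was 0.33. Against the 4 NaCl libraries without the title ending 0 interferon genes were called and the median was -0.67, while against the 3 with it 4 were higher and the median was 1.80. Without combined-treatment replicates 3, 5 and 6, 1 was higher and the median was 1.20. Red cell markers (6 tested) and striated muscle genes (3 tested) held no called gene in limma or edgeR and none at an unadjusted p under 0.05. Of the red cell markers 1 was lower against NaCl without the ending and 2 were higher against NaCl with it, and of the muscle genes 1 was lower against NaCl with it. Both lists had 0 called without combined-treatment replicates 3, 5 and 6.

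Of 11 fibroblast and matrix genes 6 rose and 1 fell, with a median of 0.57. The counts were 6 higher and 1 lower against NaCl without the ending, 2 higher and 2 lower against NaCl with it, and 1 higher and 0 lower without combined-treatment replicates 3, 5 and 6. PDGFRB, the growth factor receptor of pericytes and fibroblasts, had 3190, 3573 and 4850 normalized reads in combined-treatment lungs, against 543, 1308 and 2028 in NaCl lungs. The lowest combined-treatment lung lay above the highest NaCl lung (log2 fold change 1.70, SE 0.23, adjusted p = 0.000919), and the gene was also called against each NaCl subset, at 2.03 and 1.22, and without combined-treatment replicates 3, 5 and 6, at 1.83. COL3A1, type III collagen, had 9857, 12787 and 19179 normalized reads under combined treatment and 1216, 2610 and 6479 under NaCl, without overlap, and rose by 2.19. COL1A2, a chain of type I collagen, rose by 1.55 and TCF21, a transcription factor of lung mesenchyme, by 1.73. COL1A2 was not called against NaCl with the ending (0.60, adjusted p = 0.131) or without combined-treatment replicates 3, 5 and 6 (1.22, adjusted p = 0.134). TCF21 was not called without those 3 libraries (1.03, adjusted p = 0.117). HAS2, a hyaluronan synthase, went the other way, with 63.1, 163 and 216 normalized reads in combined-treatment lungs, against 107, 1724 and 4519 in NaCl lungs, and fell by 3.26. This was -2.30 against the 4 NaCl libraries without the title ending and -4.58 against the 3 with it. Of 9 smooth muscle and pericyte genes PDGFRB alone was called by limma and edgeR. Against NaCl without the ending 5 of them were higher (median 1.54), against NaCl with it 1 was higher and 2 lower (median -1.61), and without combined-treatment replicates 3, 5 and 6 it was 1 higher.

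Of 17 tested genes of cell division 9 rose and 0 fell, with a median of 0.66. MCM3, a subunit of the helicase that opens DNA for replication, had 447, 608 and 983 normalized reads in combined-treatment lungs, against 232, 306 and 461 in NaCl lungs, with the single highest NaCl lung inside the combined-treatment range. Its log2 fold change was 1.10 (SE 0.18, adjusted p = 0.00175). The helicase subunits MCM2, MCM5 and MCM4 rose by 1.35, 1.16 and 0.90. The count was 5 and 6 higher against the NaCl libraries without and with the title ending, and 2 higher without combined-treatment replicates 3, 5 and 6.

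The epithelial lists held no called gene: 0 of 10 alveolar type I, 0 of 5 alveolar type II and 0 of 12 airway markers passed in limma. Of the alveolar type I markers 1 was higher against NaCl without the ending and 2 were lower against NaCl with it, and no other epithelial gene was called in the 3 further sets of libraries. In edgeR 2 alveolar type II genes passed and none of the other lists, and the same 2 genes, SLC34A2 and ETV5, alone had an unadjusted p under 0.05 in limma. SFTPB had 11125, 49995 and 129660 normalized reads in combined-treatment lungs, against 11269, 30577 and 83587 in NaCl lungs (log2 fold change 0.89, SE 0.58, adjusted p = 0.268). The phosphate carrier SLC34A2, a type II marker, had 581, 2780 and 18500 normalized reads under combined treatment and 379, 1103 and 4682 under NaCl. Combined-treatment replicates 3, 5 and 6 held 17510 to 18500 and the other 4 held 580.8 to 2781, within the range of NaCl lungs. Its log2 fold change was 1.82 (adjusted p = 0.119; 0.0460 in edgeR) and 0.27 without those 3 libraries. ETV5, a transcription factor of type II cells, was at 0.70 (adjusted p = 0.11; 0.0433 in edgeR), and AGER at -0.40 (adjusted p = 0.576). Of 12 genes of ion and water transport 1 rose and 1 fell. SLC12A2, the sodium-potassium-chloride carrier, rose by 0.76, a call lost in 8 of the 14 fits that left out 1 library. The transport counts were 2 higher and 1 lower against NaCl without the ending, 0 higher and 2 lower against NaCl with it, and 0 without combined-treatment replicates 3, 5 and 6.

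Among the 12 largest rises were genes outside these lists. ASGR1, a subunit of the asialoglycoprotein receptor known from liver, had 247, 304 and 541 normalized reads in combined-treatment lungs, against 9.13, 43.7 and 114 in NaCl lungs, without overlap (log2 fold change 3.08, SE 0.51, adjusted p = 0.00176). SGCA, the alpha-sarcoglycan of the muscle membrane complex, had 106, 175 and 270.3 normalized reads under combined treatment and 6.09, 30.2 and 73.5 under NaCl, again without overlap. GALNT14, an enzyme that starts O-linked sugar chains, rose by 2.85, the keratin KRT75 by 2.77, SMTNL2, a smoothelin-like protein, by 3.02, OLFML1, a secreted olfactomedin relative, by 2.76 and DMRTB1, a DM-domain factor known from testis, by 3.08. PYY, a gut peptide hormone, had 2.19, 40.5 and 239 normalized reads in combined-treatment lungs, against 0, 3.97 and 13.2 in NaCl lungs, and its call was lost when any of combined-treatment replicates 3, 5, 6 and 7 or NaCl replicates 4, 5 and 7 was left out. GSG1, a membrane protein known from germ cells, was at 429.5, 609.3 and 186.8 normalized reads in combined-treatment replicates 1, 2 and 4 and at 10.0 to 18.1 in the other 4, against 2.18 to 10.3 in NaCl lungs. MYBPH, a myosin-binding protein, likewise had 612 to 974 in combined-treatment replicates 1, 2, 4 and 7 and 60.2 to 148 in replicates 3, 5 and 6, against 19.0 to 218.3 in NaCl lungs. These 2 genes were thus highest in lungs other than replicates 3, 5 and 6, and without those replicates their log2 fold changes were 4.76 and 3.90. For GSG1 too, the 7 combined-treatment libraries were by themselves enough to pass the filter of 10 normalized reads. CFAP61, a protein of cilia from the airway list, was at 2495 and 1945 normalized reads in combined-treatment replicates 4 and 7 and at 10.2 to 29.4 in the other 5, against 1382 to 4852 in 5 NaCl lungs and 7.31 and 10.7 in NaCl replicates 2 and 7 (log2 fold change -2.95, adjusted p = 0.238).

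**Figure D4:**
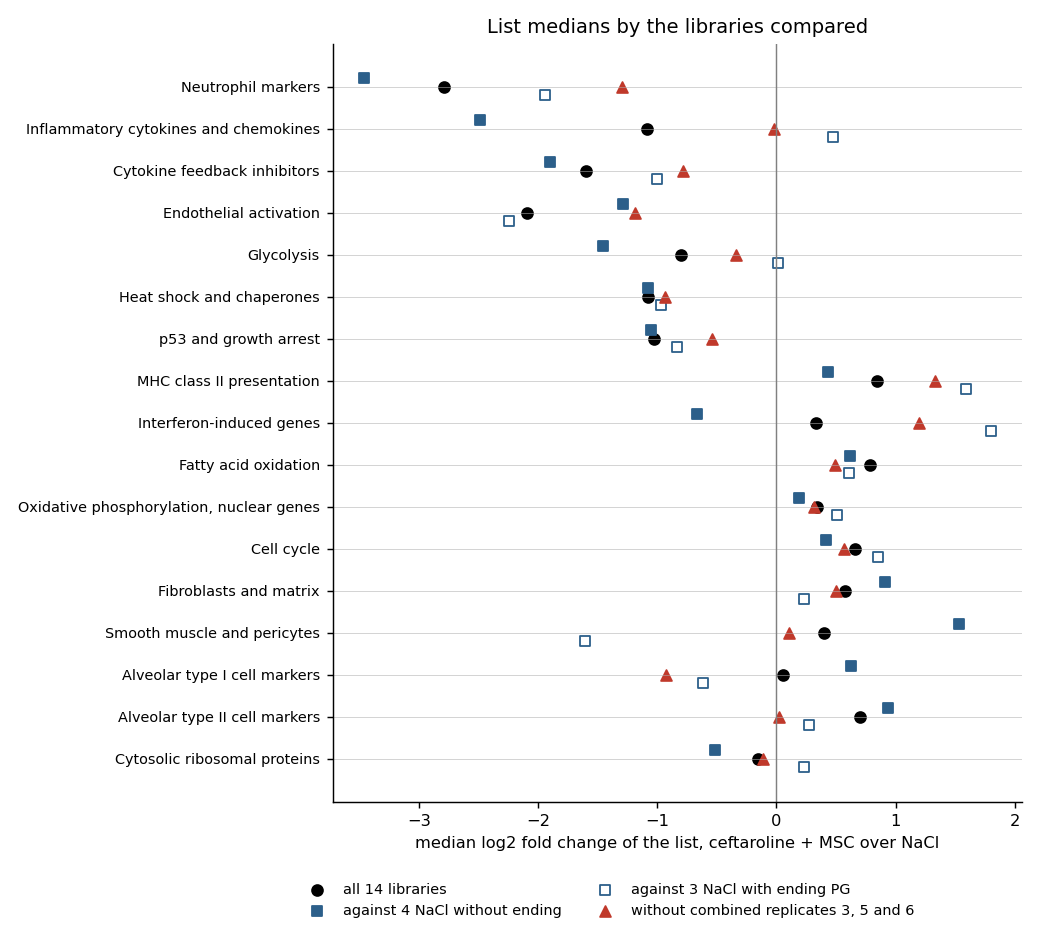
Median log2 fold change of 17 gene lists, combined treatment over NaCl, in all 14 libraries (black circles), against the 4 NaCl libraries without a title ending (filled squares), against the 3 with the ending PG (open squares) and without combined-treatment replicates 3, 5 and 6 (triangles). The heat shock and p53 lists stay between -1.08 and -0.54 in all 4 sets, and the cytokine, glycolysis, interferon-induced, smooth muscle, alveolar type I and ribosomal lists lie on both sides of 0.

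The single treatments share their NaCl libraries with this comparison, so their values are given side by side. Of the 7 MSC libraries 2 carry the title ending PG, and no ceftaroline library has an ending. Against the same 7 NaCl libraries, MSC alone gave 0 called genes of 9462 (0%) and ceftaroline alone 0 of 9615 (0%) in limma, with 1691 (17.9%) and 1760 (18.3%) genes at an unadjusted p under 0.05, where combined treatment gave 3840 (39.9%). A call under combined treatment and none under a single treatment is not by itself a difference between treatments. IL6 was at -5.85 with combined treatment, -3.13 with MSC (SE 1.28, adjusted p = 0.232) and -3.13 with ceftaroline (SE 1.18, adjusted p = 0.19) on the log2 scale. CAMP was at -5.57, -3.22 and -3.37 in the same order, HMOX1 at -2.55, -1.67 and -1.36, and GADD45A at -1.70, -0.86 and -0.65. Among the rises, CIITA was at 1.69, 1.19 and 1.41, PDGFRB at 1.70, 1.05 and 0.82, and COL3A1 at 2.19, 0.85 and 0.36. The neutrophil list's median was -2.79 with combined treatment, -1.51 with MSC and -1.25 with ceftaroline. For fatty acid oxidation these medians were 0.78, 0.47 and 0.41.

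On a scale shared by all 35 libraries, IL6 averaged 1353 ± 1853 in combined-treatment, 4513 ± 4618 in MSC, 4356 ± 4426 in ceftaroline, 20992 ± 17011 in NaCl and 3.37 ± 2.61 in healthy lungs normalized reads (SD, n = 7 each). GADD45A averaged 1944 ± 566 in combined-treatment, 3748 ± 1793 in MSC, 4346 ± 2020 in ceftaroline, 6237 ± 1469 in NaCl and 1705 ± 433 in healthy lungs normalized reads. HMOX1 averaged 4375 ± 2493 in combined-treatment, 8859 ± 5717 in MSC, 10037 ± 4902 in ceftaroline, 27792 ± 18965 in NaCl and 1933 ± 399.7 in healthy lungs normalized reads. All 3 genes had their highest mean in NaCl lungs and their lowest in healthy lungs, and of the pneumonia groups the combined treatment had the lowest mean. The single-treatment lungs overlapped with both the combined-treatment and the NaCl lungs in each of these 3 genes. Overlap of ranges is not a test of a difference. Against NaCl neither single treatment was called in limma for any of the 3, and combined against single treatment was not tested here. The combined-treatment and healthy lungs overlapped for GADD45A. For HMOX1 they overlapped only at the ends. The lowest combined-treatment lung was at 2250.5 and the highest healthy lung at 2396.8, below the combined-treatment median of 3524.8. For IL6 the highest healthy lung, at 6.11, lay just under the lowest combined-treatment lung, at 6.57. PDGFRB averaged 4091 ± 696 in combined-treatment, 2831 ± 1554 in MSC, 2323 ± 878 in ceftaroline, 1326 ± 484 in NaCl and 4741 ± 706 in healthy lungs normalized reads. CIITA differed in that all 3 treated groups averaged above the healthy lungs, at 1164 ± 340.1 in combined-treatment, 902 ± 546 in MSC, 1025 ± 505 in ceftaroline, 393 ± 229 in NaCl and 484 ± 85.3 in healthy lungs normalized reads.

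**Figure D5:**
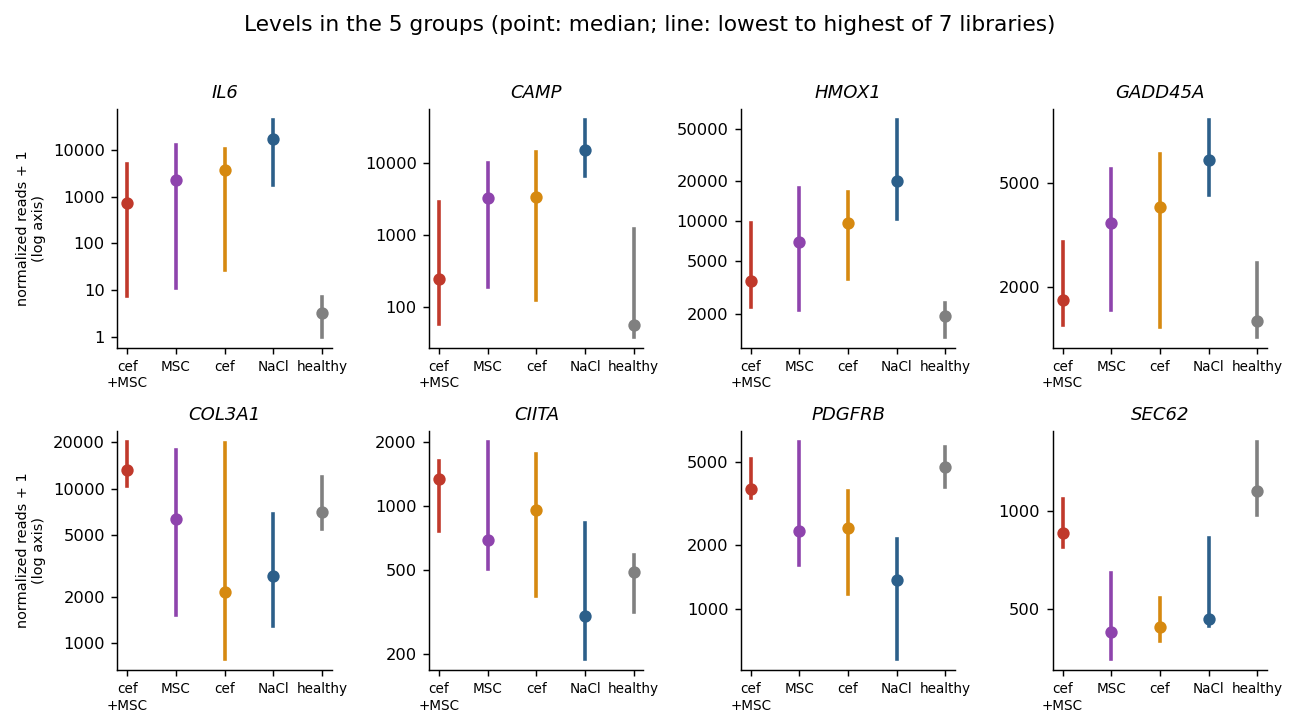
Normalized reads + 1 of 8 genes on a log axis in the 5 groups on a scale shared by all 35 libraries, with the median as a point and a line from the lowest to the highest of 7 libraries. IL6, CAMP, HMOX1 and GADD45A have their highest median in NaCl lungs, and SEC62 has a higher lowest value under combined treatment, 777.5, than the highest value of either single treatment.

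Whether combined treatment differed from the sum of the single effects was tested per gene over the 28 pneumonia libraries. On the log2 scale 1 of 10107 genes (0.00989%) passed in limma, with 546 (5.4%) at an unadjusted p under 0.05. This gene was SEC62, a part of the channel that moves proteins into the endoplasmic reticulum. It averaged 891 ± 109.7 in combined-treatment, 457 ± 108 in MSC, 465 ± 54.6 in ceftaroline, 568 ± 156 in NaCl and 1195 ± 205 in healthy lungs normalized reads. SEC62 rose by 0.68 with combined treatment against NaCl, while MSC and ceftaroline alone were at -0.30 and -0.24 and did not pass. The rise against NaCl was 0.98 with the NaCl libraries without the ending, but its call was lost with the 3 that have it (0.25, adjusted p = 0.19) and without combined-treatment replicates 3, 5 and 6 (0.55, adjusted p = 0.107). The difference from the sum was 1.24 (SE 0.21, adjusted p = 0.0256). That call was lost without combined-treatment replicates 1, 3, 5 or 6, MSC replicates 1, 2, 4 or 5, ceftaroline replicates 1, 3, 4 or 5 or NaCl replicate 7, each left out alone, at adjusted p up to 0.0878. Without the 3 NaCl and 2 MSC libraries that carry the title ending PG, 43 genes passed, SEC62 among them at 1.12. For IL6 the difference from the sum was 0.42 (SE 2.22), so that departures of several log2 units either way could not be detected for so variable a gene. For GADD45A it was -0.16 (SE 0.46).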

How the data were processed

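Polyadenylated RNA of 35 rabbit lungs was sequenced as stranded single reads of 75 bp, per the labels' protocols, which name bcl2fastq2 2.18.12 and Cutadapt 1.15 with a minimum read length of 10 bp. TopHat2 2.1.1, featureCounts 1.5.2 and DESeq2 1.24.0 are named in the submitters' processing notes. For genome build and annotation, nothing is given in the sources used here. Over 23669 Ensembl genes (16304 with a symbol) the authors deposited 4 tables, in which the signal of each library is its reads per gene divided by a size factor, per the file headers.

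Division of each column by its smallest value above 0 returned whole numbers (100% of values, relative tolerance 1e-06), which are the reads. The 14 libraries present in several tables gave identical reads. Symbols came from 1 table, since 11 symbols stand as dates in the others. Counts were scaled by TMM (edgeR 4.0.16) over the libraries compared. A gene needed 10 normalized reads in 7 of the 14 libraries to enter the test with limma 3.58.1 in R 4.3.3 on log2(normalized reads + 1) with an intensity trend, two-sided and without covariates. Calls were made at an adjusted p (Benjamini-Hochberg) under 0.05. Fold changes on this scale understate those of low genes. The test against the sum of single effects used the 28 pneumonia libraries. Each of the tests was tried on simulated counts. In these few genes changed and no libraries stood apart within a group, unlike here, so no result rests on them. The count tests of edgeR and DESeq2 1.42.0 were run on the recovered reads as alternatives, beside other scalings, filters, pseudocounts and sets of libraries. edgeR called 2769 genes, 2520 of them shared with the 2653 of limma, and DESeq2 3368, of which 2600 were shared.

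The comparison, the 35 gene lists and the rule for naming genes were chosen with earlier results of these data known. Named are the 12 largest rises and falls among called genes with a mean of at least 50 normalized reads, up to 4 members of each list with the lowest p, a panel of 18 genes whatever their result, and the lowest p of the sum test, of which 1 gene that passed is reported. Not every gene named by that rule is reported here. Genes listed at 0 in all 35 libraries (10217) could not be tested, and some of these are used by every cell, so a 0 is not read as absence. The labels do not say that libraries of a group came from separate litters or days, and no 2 libraries of a group agreed within sampling noise (lowest chi-square per degree of freedom 40.2). Depth of 7611988 to 18271138 reads limits mainly genes near the filter.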

Additional observations from a re-analysis of the deposited data

Results flagged for a closer look

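For 112 of the genes named, 224 sets of 7 libraries were searched for a library that stood apart. In 5 of them the distance to the nearest other library exceeded Dixon's critical share of the group's whole range, on the log2 scale. Chance alone flags about 1 in 20 such sets. In NaCl replicate 1, SIGLEC1 stood at 660.7 normalized reads where the next highest NaCl lung had 112.6, RLA-DMB at 7506 with the next at 2219, HLA-DMA at 3152 with the next at 1230, and MCM3 at 461 with the next at 310.3. These 4 genes were all higher under combined treatment, and NaCl replicate 1 is the NaCl lung nearest to the combined-treatment lungs in each of them. In NaCl replicate 5, S100A8 stood at 62020 normalized reads where the next lowest NaCl lung had 213200.

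SEC62 differed between the MSC effect with ceftaroline and the MSC effect without it, by 1.242 on the log2 scale, which passed the test of that difference over 28 libraries. Its level under combined treatment lay above that of both single treatments in all 7 libraries.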

How the results depend on the processing

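The count of 2653 called genes was 1069 at adjusted p under 0.01, 1030 when the change also had to be at least 2-fold and 544 without combined-treatment replicates 3, 5 and 6, an alternative chosen after seeing the data. Leaving out 1 library at a time gave 1885 to 2944, lowest without combined-treatment replicate 6. With a replicate block over the 8 libraries that share a title number, 0 genes were called by limma, with 2313 at an unadjusted p under 0.05, and the same 8 libraries unblocked gave 228. The deviations of libraries with the same number from their group means had correlations of 0.189, 0.287, -0.259 and 0.197. These few values, without those of unlike numbers beside them, cannot show whether the libraries were paired. Outside that block the libraries were treated as unpaired. DESeq2's size factors gave 2653 genes with 51.9% higher, a filter at 50 gave 2353, no filter 2577, a pseudocount of 5 2654, array weights 2915 and adjusted p under 0.1 3487. No called gene changed sign in these, except 31 with scaling to library totals. The count of 1 gene against the sum of single effects was 43 in libraries without a title ending and 0 to 12 when 1 library was left out. TNF turned to 0.77 against the 3 NaCl libraries with the title ending and to 0.88 without combined-treatment replicates 3, 5 and 6, where SFTPB turned to -0.0072. The causes were not tested.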
